A study of Mus musculus with 6 samples.

Results

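The commitment of lymphoid progenitors to the B lineage and the later maturation of B cells were followed through 9 genes, chosen by symbol: *Pax5*, *Ebf1*, *Ms4a1*, *Cr2*, *Fcer2a*, *Cd22*, *Ighm*, *Ighd* and *Bank1*. Each symbol was matched to its Ensembl identifier with GENCODE M21 names, and 8 of the 9 had a row among the 39179 mouse genes that the count tables list. *Ighd*, the constant region of IgD (ENSMUSG00000104213, GRCm38 chr12:113406604-113416324, minus strand), had no row and is not analysed here. All 8 genes with a row passed the filter on low counts.

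The bone marrow of 6 littermate mice was profiled by RNA sequencing. The 3 *MxCDX2* mice had the genotype *RsCDX2::Mx1Cre*: the human *CDX2* coding sequence in the *Rosa26* locus, behind a stop sequence that loxP sites allow to be removed, and Cre under the interferon-inducible promoter of *Mx1*. Control 1 was of genotype *RsCDX2*, control 2 carried *Mx1Cre* alone and control 3 was wild type, so no control genotype had a replicate. All 6 mice, aged 3 months, were injected 3 times with poly(I:C), an interferon inducer, at 10 µg per g, and the marrow was taken 6 weeks later. The *Mx1* promoter responds to interferon in many cell types, so the model is not specific to B cells. The RNA was labelled as bone marrow with no sort, and its libraries held between 38646101 and 49899650 reads counted on genes. Reads on mouse *Cdx2*, the only row on which the transgene could be counted, numbered 152, 155 and 183 in the *MxCDX2* mice, beside 4, 0 and 0 in the controls.

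As background, B cells arise in the bone marrow from lymphoid progenitors in which E2A (encoded by *Tcf3*) and EBF1 open the B-lineage program and PAX5 then fixes it by activating B-cell genes and silencing those of other lineages. Immature B cells carry IgM, the product of *Ighm*, on their surface, and mature B cells add IgD together with CD21 and CD23. CD20 and CD22 are already present at earlier stages of the lineage. Mature B cells recirculate between the blood, the spleen and the marrow, whereas plasma cells lodge in the marrow and secrete antibody.

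The promoters of the genes are shown because EBF1, PAX5 and E2A act on many of the others. RefSeq (GRCm38.p6) gave 9 windows of 300 bases, from 250 before to 50 after a transcription start, for 6 of the genes: *Pax5*, *Ebf1*, *Cr2*, *Fcer2a*, *Cd22* and *Bank1*. Both strands were searched for the EBF core CCCNNGGG, for its extended form with 1 further T before and A after, for the octamer ATTTGCAT, for the PU.1-type ETS motif GAGGAA, for the E-box CAGGTG bound by E2A and for the CDX motifs TTTATG and TTTATT. Capitals mark the matches in the 4 windows below, which run 5′ to 3′ on the strand of the gene.
*Pax5*, chr4:44710645-44710944, minus strand: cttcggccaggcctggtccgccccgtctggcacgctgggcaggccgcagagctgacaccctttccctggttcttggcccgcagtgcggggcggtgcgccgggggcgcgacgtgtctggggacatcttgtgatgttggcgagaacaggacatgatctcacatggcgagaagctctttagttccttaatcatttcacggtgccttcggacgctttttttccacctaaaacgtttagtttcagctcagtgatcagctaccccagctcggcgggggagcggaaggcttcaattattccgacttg
*Cr2*, chr1:195176670-195176969, minus strand: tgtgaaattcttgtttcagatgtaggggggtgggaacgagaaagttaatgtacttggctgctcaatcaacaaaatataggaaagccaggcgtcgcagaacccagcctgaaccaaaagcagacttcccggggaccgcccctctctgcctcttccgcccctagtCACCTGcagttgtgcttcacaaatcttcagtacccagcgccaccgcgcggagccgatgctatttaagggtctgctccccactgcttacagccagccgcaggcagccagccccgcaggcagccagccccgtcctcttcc
*Cd22*, chr7:30878979-30879278, minus strand: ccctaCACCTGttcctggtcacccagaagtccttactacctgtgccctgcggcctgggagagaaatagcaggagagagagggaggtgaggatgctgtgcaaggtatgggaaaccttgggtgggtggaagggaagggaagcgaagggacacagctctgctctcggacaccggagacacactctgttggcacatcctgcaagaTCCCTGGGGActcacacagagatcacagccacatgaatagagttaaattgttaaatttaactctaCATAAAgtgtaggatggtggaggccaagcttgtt
*Bank1*, chr3:136326017-136326316, minus strand: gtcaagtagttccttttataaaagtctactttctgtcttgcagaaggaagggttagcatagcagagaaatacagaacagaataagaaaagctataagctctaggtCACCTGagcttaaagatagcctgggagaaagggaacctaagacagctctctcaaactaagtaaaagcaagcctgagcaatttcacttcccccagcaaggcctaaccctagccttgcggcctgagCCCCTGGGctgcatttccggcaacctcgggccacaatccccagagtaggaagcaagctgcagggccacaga
The *Cd22* window held the extended EBF form at -49 to -40 from the start, which contains the EBF core, an E-box at -245 to -240 and TTTATG, read on the other strand, at 17 to 22. The *Bank1* window held the EBF core at -21 to -14 and an E-box at -145 to -140. The *Cr2* window held an E-box at -88 to -83, and no motif of this set was found in the *Pax5* window. Over all 32851 RefSeq windows of this length, the EBF core was found in 13.7%, the extended form in 0.904%, the E-box in 20.2%, TTTATG in 11.9% and TTTATT in 19.6%. In the 9 windows of the B-cell genes, the EBF core was found in 2, the E-box in 4 (*Bank1*, *Cd22*, *Cr2* and 1 of the *Fcer2a* windows), TTTATG in 1 and TTTATT in 1. The ETS motif, found in 28.3% of all windows, was found in 1 (*Ebf1*), and the octamer, found in 1.74% of all windows, in 0. These matches describe letters in short windows and are not measurements of binding.

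Transcripts of B-cell surface and signalling proteins were lower in the marrow of *MxCDX2* mice. *Ms4a1*, *Cr2*, *Fcer2a*, *Cd22* and *Bank1* fell between 2.46-fold and 7.27-fold and passed the test. The commitment factors *Pax5* and *Ebf1* had means 3.59-fold and 3.25-fold lower, a larger fall than that of *Cd22*, but did not pass it. The IgM constant region *Ighm* had a mean 1.74-fold lower and did not pass it either. Genes were called with edgeR's quasi-likelihood test where the absolute log2 fold change was above 1 and the adjusted p-value below 0.05. By this rule 5 of the 8 genes were called, all lower, where 13.6% of the 15980 tested genes were called in either direction and 9.03% were called lower. In 7 of the 8 genes, all except *Ighm*, every *MxCDX2* mouse was below every control mouse, which was the case for 20.7% of the tested genes. The median log2 fold change of the 8 genes was -2.08, beside 0.0021 for all tested genes. In bulk marrow, fewer B cells and less of a transcript per B cell cannot be told apart.

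The number of called genes depended on the wild-type mouse and on the tool. Without control 3, all 8 genes were called, where 9.16% of the genes tested then were called lower, and DESeq2 called 7, all except *Ighm*, at a background of 10.8% of its tested genes called lower. The test against a log2 fold change of 1 left 3, *Cr2*, *Fcer2a* and *Bank1*, where it called 2.33% of all tested genes lower.

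**Figure D1:**
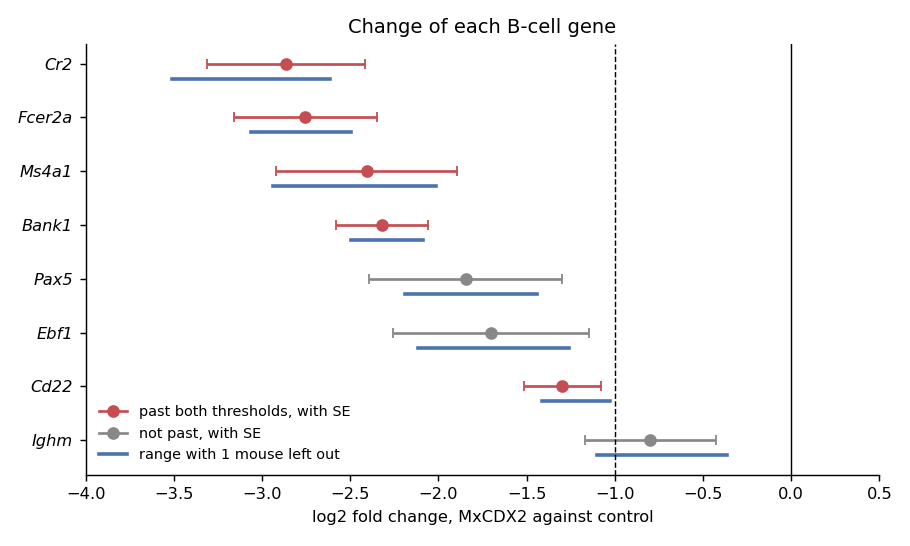
Log2 fold change of each B-cell gene in *MxCDX2* against control mice (points, n = 3 mice per group), with the standard error as a horizontal bar and, below each point, the range with 1 mouse left out in turn; the dashed line marks -1. *Cr2* lies farthest left at -2.86 and *Ighm* nearest to 0 at -0.80, and no range crosses 0.

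*Pax5* and *Ebf1* encode the transcription factors that specify and hold the B lineage. *Pax5* (ENSMUSG00000014030, chr4:44524757-44710487, minus strand) had 1753, 2438 and 728 normalized counts in control mice 1, 2 and 3, against 646, 213 and 510.1 in *MxCDX2* mice 1, 2 and 3, and the same order of mice is kept throughout. Normalized counts are counts scaled to the mean effective library size of the 6 mice. The groups did not overlap, but the wild-type control stood close to the *MxCDX2* mice. The means were 1639.8 ± 860.3 and 456 ± 222 (SD, n = 3 per group), a log2 fold change of -1.85 (SE 0.55) with an adjusted p of 0.0544. Without control 3 the log2 fold change was -2.19 with an adjusted p of 0.0194, and DESeq2 gave an adjusted p of 0.00321 with all 6 mice. In the other direction, it was -1.44 (adjusted p = 0.137) without control 2 and -1.50 (adjusted p = 0.121) without *MxCDX2* mouse 2, and the adjusted p was 0.106 with the replicate number as a block. Some exons of *Pax5* overlap 2 genes on the opposite strand, *Gm12462* and *5730488B01Rik*. *Gm12462* had between 0 and 11 reads per mouse and *5730488B01Rik* had no row.

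*Ebf1* (ENSMUSG00000057098, chr11:44617317-45008091, plus strand) had 2082, 3152 and 957 normalized counts in the control mice and 951, 282 and 669 in the *MxCDX2* mice. The lowest control and the highest *MxCDX2* mouse were thus nearly level. The means were 2064 ± 1097 and 634 ± 336 (SD, n = 3 per group), and the log2 fold change was -1.70 (SE 0.55) with an adjusted p of 0.0723. Without control 3 it was -2.03 with an adjusted p of 0.0301, and DESeq2 gave 0.00871 with all mice. It was -1.26 (adjusted p = 0.183) without control 2 and -1.34 (adjusted p = 0.149) without *MxCDX2* mouse 2, and the adjusted p was 0.128 with the replicate block. The 6 mice stood in the same order for *Ebf1* and *Pax5*: control 2, control 1, control 3, then *MxCDX2* mice 1, 3 and 2.

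*Ms4a1*, *Cr2*, *Fcer2a* and *Cd22* encode surface proteins of B cells. *Ms4a1* (ENSMUSG00000024673, chr19:11249675-11266241, minus strand) encodes CD20, a tetraspanning membrane protein present from the pre-B to the memory stage. It had 3620.2, 4502 and 2445 normalized counts in the control mice and 1076, 256 and 662 in the *MxCDX2* mice. Every *MxCDX2* mouse was below every control mouse, and *MxCDX2* mouse 2 was the lowest. *Ms4a1* fell 5.30-fold (log2 fold change -2.41, SE 0.51, adjusted p = 0.0196). Without control 2 the adjusted p was 0.0518 and without *MxCDX2* mouse 3 it was 0.0789, at log2 fold changes of -2.19 and -2.40, so the call was lost in both cases.

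*Cr2* (ENSMUSG00000026616, chr1:195136811-195176716, minus strand) encodes the complement receptors CD21 and CD35, which lower the threshold of B-cell activation and are also carried by follicular dendritic cells. It had 693, 933 and 760.3 normalized counts in the control mice and 189.6, 69.6 and 69.6 in the *MxCDX2* mice. The control mice lay close together, with a mean of 795 ± 124, far above the mean of 109.6 ± 69.3 in the *MxCDX2* mice (SD, n = 3 per group). This was the steepest fall of the 8 genes, 7.27-fold (log2 fold change -2.86, SE 0.45, adjusted p = 0.0071), and it was called with each mouse left out in turn. *Fcer2a* was close at -2.75 (SE 0.41), and fell further than *Cr2* without control 1, *MxCDX2* mouse 2 or *MxCDX2* mouse 3. Among genes of follicular dendritic cells, *Cxcl13* had 10.2, 2.98 and 76.6 normalized counts in the control mice and 4.24, 0.98 and 5.22 in the *MxCDX2* mice, and *Fdcsp* had no row. From the same list, *Mfge8* was called higher (log2 fold change 1.48, SE 0.26, adjusted p = 0.00965) and *Clu* was not called (-2.09, SE 0.83, adjusted p = 0.12).

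*Fcer2a* (ENSMUSG00000005540, chr8:3681737-3694175, minus strand) encodes CD23, the low-affinity IgE receptor of mature follicular B cells. It had 789.7, 2072 and 1823 normalized counts in the control mice and 307, 198 and 189.8 in the *MxCDX2* mice. Here the *RsCDX2* mouse, not the wild-type mouse, was the low control. The fall was 6.75-fold (log2 fold change -2.75, SE 0.41, adjusted p = 0.00578), and it was called with each mouse left out in turn.

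*Cd22* (ENSMUSG00000030577, chr7:30865402-30880342, minus strand) encodes a sialic acid-binding lectin that dampens signals of the B-cell receptor. It had 3176, 4985 and 2994 normalized counts in the control mice and 1569.9, 1642 and 1325 in the *MxCDX2* mice. The *MxCDX2* mice were tightly grouped at 1512 ± 166, below a control mean of 3718 ± 1101 (SD, n = 3 per group). *Cd22* kept the largest share of the 5 called genes, 40.7% of the control mean, and fell 2.46-fold (log2 fold change -1.30, SE 0.22, adjusted p = 0.00883). The call was made with each mouse left out in turn but not in the test against a log2 fold change of 1. An exon of *Cd22* overlaps *Gm29439* on the opposite strand, which had no row.

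*Bank1* (ENSMUSG00000037922, chr3:136053363-136326066, minus strand) encodes a scaffold protein that links the B-cell receptor to calcium release. It had 1517, 2006 and 1762 normalized counts in the control mice and 434, 233 and 391 in the *MxCDX2* mice. Of the 8 genes it had the smallest adjusted p and the smallest relative spread among controls, with means of 1762 ± 244 and 353 ± 106 (SD, n = 3 per group). It fell 4.99-fold (log2 fold change -2.32, SE 0.26, adjusted p = 0.00272), and each mouse could be left out without losing the call.

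*Ighm* (ENSMUSG00000076617, chr12:113418558-113422730, minus strand), the constant region of the μ heavy chain, is transcribed in B cells and in IgM-secreting plasma cells. It had 54062, 83970.4 and 27917 normalized counts in the control mice and 29384, 34499 and 31559 in the *MxCDX2* mice. The groups overlapped, since the wild-type mouse was the lowest of all 6. The *MxCDX2* mice hardly differed from each other (31814 ± 2567), whereas the control mice spread widely (55316 ± 28048, SD, n = 3 per group). The log2 fold change was -0.80 (SE 0.37) with an adjusted p of 0.176, and the two-sided exact permutation test over the mice gave p = 0.4, where 3 against 3 mice cannot go below 0.1. Without control 3 the log2 fold change was -1.10 with an adjusted p of 0.0166, and without control 2 it was -0.37 with an adjusted p of 0.454.

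**Figure D2:**
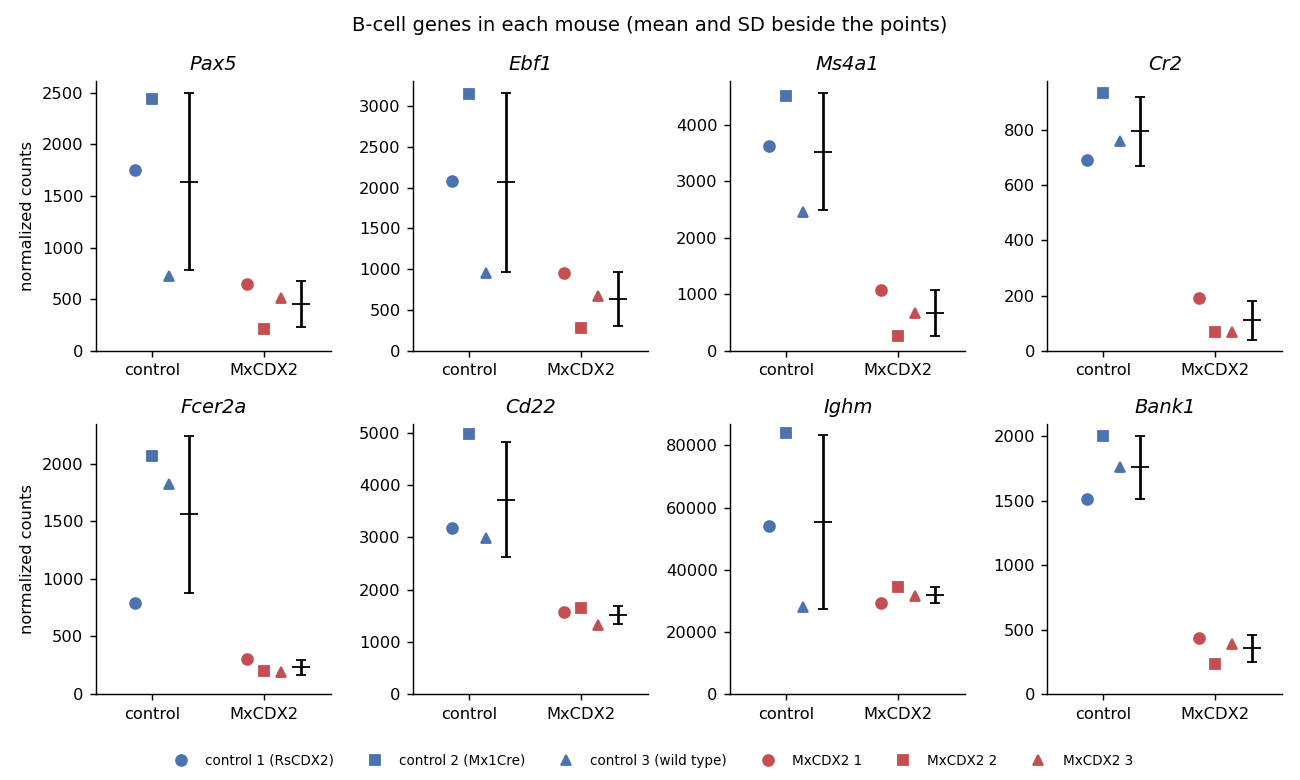
Normalized counts (linear axis from 0, 1 panel per gene) of each mouse, with the group mean and SD (n = 3 mice) beside the points; marker shapes tell the mice apart. The wild-type control (blue triangle) lies near the *MxCDX2* mice for *Pax5* and *Ebf1*, below them for *Ighm*, and well above them for *Cr2*, *Fcer2a* and *Bank1*.

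The control mice did not rank alike over the genes. All 8 genes were highest in the *Mx1Cre* mouse. The wild-type mouse was the lowest control for 5 genes, and its level divided by the mean of the other 2 controls was 0.348 for *Pax5*, 0.366 for *Ebf1* and 0.405 for *Ighm*. The same quotient was 0.602 for *Ms4a1* and 0.734 for *Cd22*, but 0.935 for *Cr2*, 1.00 for *Bank1* and 1.27 for *Fcer2a*. The wild-type mouse thus had low levels of the commitment factors and *Ighm* beside levels of *Cr2*, *Bank1* and *Fcer2a* within or near the range of the other controls. Among the *MxCDX2* mice, mouse 2 was the lowest for 5 genes, *Pax5*, *Ebf1*, *Ms4a1*, *Cr2* and *Bank1*, and mouse 3 for *Fcer2a* and *Cd22*.

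Outside the lists used here, the 5 genes whose log2 CPM over the 6 mice was most like the mean standardized profile of the 8 B-cell genes were *Cbx6*, *Arvcf*, *Mknk2*, *Gpx1* and *Ppm1e*. The search covered genes averaging 100 normalized counts or more. Their Pearson r with that profile ran from 0.998 for *Cbx6* to 0.996 for *Ppm1e* over 6 mice, which share their libraries and differ by group, so the values are a description. *Arvcf* and *Ppm1e* were called lower, with log2 fold changes of -1.65 (SE 0.29) and -1.49 (SE 0.30). *Cbx6* (-0.87, SE 0.16), *Mknk2* (-0.52, SE 0.12) and *Gpx1* (-0.51, SE 0.16, adjusted p = 0.0631) were not called. With 1 mouse left out in turn, *Arvcf* was called in 6 of 6 analyses and *Ppm1e* in 4.

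Levels of different genes were compared per exon length, as RPKM (reads per kilobase of exon, scaled for library size). In the control mice *Ighm* led with 645 ± 327 RPKM (SD, n = 3), followed by *Cd22* at 16.2 ± 4.80, *Ms4a1* at 12.5 ± 3.67 and *Fcer2a* at 11.1 ± 4.84. *Bank1* had 5.18 ± 0.718, *Ebf1* 4.65 ± 2.47, *Pax5* 4.07 ± 2.14 and *Cr2* 2.16 ± 0.337 RPKM. Only the steps from *Ighm* to *Cd22* and from *Fcer2a* to *Bank1* exceeded the larger SD of the pair. In the *MxCDX2* mice *Ighm* had 371 ± 29.9 RPKM, *Cd22* 6.60 ± 0.725, *Ms4a1* 2.36 ± 1.46, *Fcer2a* 1.65 ± 0.466 and *Ebf1* 1.43 ± 0.757. *Pax5* had 1.13 ± 0.551, *Bank1* 1.04 ± 0.311 and *Cr2* 0.297 ± 0.188 RPKM. There the steps from *Ighm* to *Cd22*, from *Cd22* to *Ms4a1* and from *Bank1* to *Cr2* exceeded the larger SD, so *Bank1* stood above *Ebf1* and *Pax5* in the control mice and below them in the *MxCDX2* mice, in both cases within the spread.

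Each gene was then set against genes that all B cells share, to ask whether it fell more or less than they did. The reference, chosen after the data were seen, was the summed count of *Cd79a* and *Cd79b*, the signalling chains of the B-cell receptor. These genes had log2 fold changes of -2.01 (SE 0.57, adjusted p = 0.0486) and -1.71 (SE 0.43, adjusted p = 0.0328). With the replicate number as a block, their adjusted p-values were 0.0687 and 0.0709, and their calls were lost. Each was also called in only 2 of the 6 analyses that left out 1 mouse, those without control 3 and without *MxCDX2* mouse 1. Without control 1, control 2, *MxCDX2* mouse 2 or *MxCDX2* mouse 3, their adjusted p-values lay between 0.0703 for *Cd79b* without control 1 and 0.144 for *Cd79a* without *MxCDX2* mouse 3.

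Relative to this reference, *Ms4a1* and *Cr2* were lower in every *MxCDX2* mouse than in every control mouse, and *Ighm* was higher. The log2 ratio of *Ighm* to the reference was 1.62, 1.80 and 1.51 in the controls in their numbered order, against 2.05, 3.94 and 2.65 in the *MxCDX2* mice, a difference of 1.24. *MxCDX2* mouse 2 stood apart: without it the difference was 0.71, and without *MxCDX2* mouse 1 it was 1.65. The controls were closer to each other on this scale than in their *Ighm* counts.

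The log2 ratio of *Cr2* was -4.66, -4.69 and -3.69 in the control mice and -5.22, -5.01 and -6.18 in the *MxCDX2* mice, a difference of -1.12. Against *Cd79a* alone the *Cr2* difference was -0.86 and the groups overlapped, with *MxCDX2* mouse 2 above controls 1 and 2. The log2 ratio of *Ms4a1* to the summed reference was -2.278, -2.422 and -2.002 against -2.72, -3.14 and -2.93, a difference of -0.69, or -0.43 against *Cd79a* alone. The exact permutation test gave p = 0.1 for each of these 3 genes, the smallest two-sided p that 3 against 3 mice allow, so none of the 8 ratios compared could pass 0.05. The groups overlapped for the other 5: *Ebf1* (difference 0.19, exact p = 0.2), *Pax5* (0.07, exact p = 0.8), *Cd22* (0.63, exact p = 0.4), *Fcer2a* (-0.77, exact p = 0.3) and *Bank1* (-0.46, exact p = 0.4). *Pax5* stayed within a narrow band, from -3.75 to -3.31 in the control mice and from -3.45 to -3.31 in the *MxCDX2* mice.

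**Figure D3:**
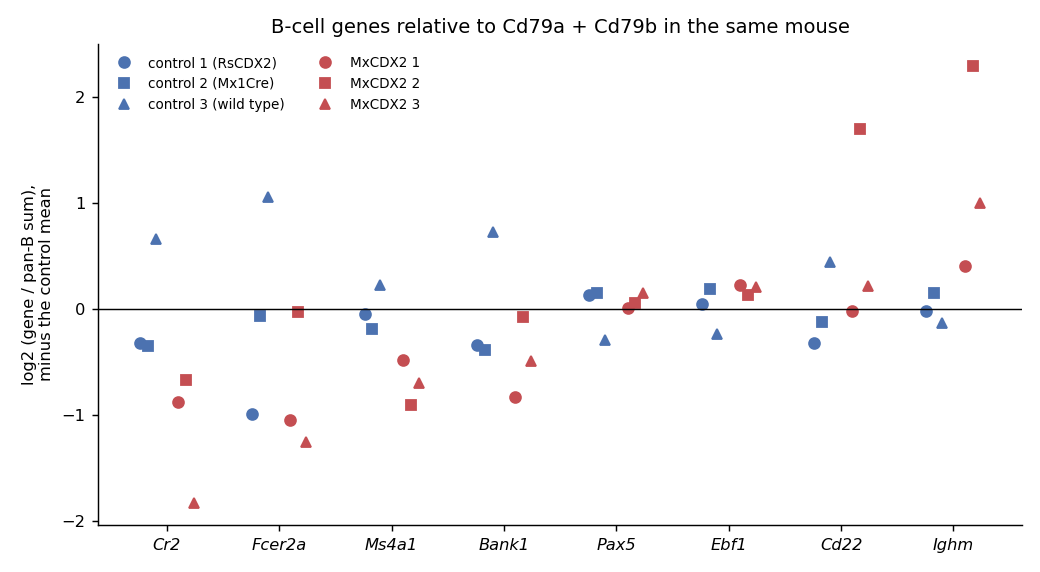
Log2 ratio of each B-cell gene to the summed counts of *Cd79a* and *Cd79b* in the same mouse, minus the control mean of that gene (vertical axis, log2 units; 1 point per mouse). *MxCDX2* mice lie below all controls for *Cr2* and *Ms4a1* and above them for *Ighm*, with *MxCDX2* mouse 2 highest for *Ighm*.

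Further B-lineage genes were read from 6 lists with 83 genes, of which 81 were tested. Of these, 26 were called lower, 4 were called higher and 51 were not called, with a median log2 fold change of -0.77 beside 0.0021 for all tested genes. Over all tested genes 13.6% were called, 9.03% lower, and the counts of each list below stand beside those shares. A fit with the replicate number as a block called 20 genes in place of 30. Leaving out 1 mouse gave 38 calls without control 3, 30 without *MxCDX2* mouse 1, 20 without control 1, 17 without *MxCDX2* mouse 2, 16 without control 2, and 14 without *MxCDX2* mouse 3. The test against a log2 fold change of 1 called 4. Calls over all tested genes numbered 2177 with all 6 mice, 2205 with the block and 611 in that test. They numbered 2406 without control 3, 1788 without *MxCDX2* mouse 1 and 1760 without control 1. There were 1480 without *MxCDX2* mouse 2, 1884 without control 2 and 1205 without *MxCDX2* mouse 3.

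Of 18 B-lineage transcription factors, 5 were called lower and 0 higher (median -0.48). *Bcl11a*, a zinc-finger factor needed for early lymphoid development, had 2655, 2716 and 3315 normalized counts in the control mice and 1034, 724 and 759.96 in the *MxCDX2* mice, with the wild-type mouse the highest. It fell by 1.79 on the log2 scale (SE 0.18, adjusted p = 0.00212). *Ets1* fell by 1.14 (SE 0.20, adjusted p = 0.0096), but by 0.94, under the threshold of 1, without control 2. *Tcf3*, which encodes E2A, fell by 1.02 (SE 0.19, adjusted p = 0.0137). *Tcf3* was just over the threshold: its log2 fold change was -0.99 with the replicate block, -0.79 without control 2 and -0.94 without *MxCDX2* mouse 2, and its adjusted p was 0.0592 without *MxCDX2* mouse 3. *Zfp318*, which controls the splicing of IgD, was not called (-0.33, adjusted p = 0.158), nor was *Irf4* (-0.19, adjusted p = 0.83).

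Of 14 genes of the B-cell receptor complex and its signalling, 6 were called lower and 0 higher (median -0.33). *Cd81*, a tetraspanin that other cells also carry, fell by 1.53 (SE 0.17, adjusted p = 0.00258), from 4899 ± 944 to 1691 ± 199 normalized counts (SD, n = 3 per group). *Prkcb*, the kinase that passes the signal to NF-κB, fell by 1.42 (SE 0.21, adjusted p = 0.00556). *Blnk*, the adaptor that joins SYK to its targets, fell by 1.77 (SE 0.42, adjusted p = 0.0284). Its adjusted p was 0.0581 with the replicate block, and between 0.0585 and 0.0938 without control 1, control 2, *MxCDX2* mouse 2 or *MxCDX2* mouse 3. *Btk*, *Syk*, *Lyn* and *Plcg2*, kinases and a phospholipase that myeloid cells use as well, were not called, with log2 fold changes of 0.14, -0.56, 0.27 and 0.19.

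Inhibitory receptors moved in both directions: of 9 inhibitory co-receptors and Fc receptor-like genes, 3 were called lower and 1 higher (median -1.10). *Fcrl1*, an Fc receptor-like protein of B cells, had 921, 1123 and 1196 normalized counts in the control mice and 250.001, 75.4 and 151 in the *MxCDX2* mice, and fell by 2.77 (SE 0.43, adjusted p = 0.00676). *Fcgr2b*, an inhibitory IgG receptor shared by B cells and monocytes, had 5529, 4846 and 2973 against 11651, 12975 and 13781, and rose by 1.52 (SE 0.23, adjusted p = 0.00642). *Fcrla* fell by 1.89 (SE 0.48, adjusted p = 0.0335), with an adjusted p of 0.0655 under the replicate block and calls in 2 of the 6 analyses that left out 1 mouse, those without control 3 and without *MxCDX2* mouse 1.

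Of 16 mature B-cell surface and presentation genes, 8 were called lower and 2 higher (median -1.31). *Ralgps2*, a guanine nucleotide exchange factor, had 2414, 3380.1 and 3183 normalized counts in the control mice and 994, 530.001 and 685 in the *MxCDX2* mice, and fell by 2.02 (SE 0.26, adjusted p = 0.00379). *H2-Ob*, a chain of the class II antigen-loading modulator H2-O, fell by 1.78 (SE 0.25, adjusted p = 0.00489). *Ly86*, the partner of the receptor RP105 that myeloid cells also carry, had 1699.6, 1746 and 2809 against 6566, 6971 and 6032, and rose by 1.65 (SE 0.21, adjusted p = 0.00389). The other gene called higher was *Gpr183*, a receptor for oxysterols on B cells and myeloid cells, which rose by 1.56 (SE 0.22, adjusted p = 0.00512) and is named here after its value was seen.

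Of 9 pro-B and pre-B genes, all 9 had a negative log2 fold change (median -1.52) but only 2 were called. *Il7r*, the receptor of the cytokine that sustains early B cells, fell by 1.76 (SE 0.46, adjusted p = 0.0372), and *Vpreb2*, part of the surrogate light chain, fell by 1.71 (SE 0.49, adjusted p = 0.049). Neither call held with the replicate block (adjusted p = 0.0544 and 0.0768). Leaving out 1 mouse, *Il7r* was called only without control 3 and *Vpreb2* in none of the 6 analyses, in which its adjusted p ranged from 0.0519 to 0.119.

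Of 17 immunoglobulin constant region and plasma cell genes, 15 were tested, 2 were called lower and 1 higher (median -0.51). *Ighg3*, the IgG3 constant region, had 650.4, 649 and 291 normalized counts in the control mice and 62.5, 96.0 and 123 in the *MxCDX2* mice, and fell 5.64-fold (SE 0.41 on the log2 scale, adjusted p = 0.00855). *Iglc2*, a λ light chain constant region, fell by 1.35 (SE 0.31, adjusted p = 0.0261), a call kept only without control 3 and without *MxCDX2* mouse 1 among the 6 analyses that left out 1 mouse. *Sdc1*, the plasma cell marker CD138, had 1624, 1120.1 and 1195 against 2612, 4533 and 3305, and rose by 1.41 (SE 0.24, adjusted p = 0.00939). The other plasma cell genes of the list did not move together, and none was called with all 6 mice. With each mouse left out in turn, *Mzb1*, *Tnfrsf17* and *Derl3* stayed negative and *Xbp1* stayed positive. *Prdm1* and *Jchain* changed sign. *Mzb1* was called lower without *MxCDX2* mouse 1 (log2 fold change -1.73, adjusted p = 0.0236). *Xbp1* was called higher without control 1 (log2 fold change 1.21, adjusted p = 0.0102). The antibody transcripts of plasma cells varied with the mouse in both groups: *Igha*, the IgA constant region, had 491092, 88843 and 214171 normalized counts in the control mice and 372991, 64336 and 146427 in the *MxCDX2* mice. Its log2 fold change was -0.44 (adjusted p = 0.733), and those of *Igkc* (-0.66, adjusted p = 0.528) and *Jchain* (-0.53, adjusted p = 0.645) were not called either. Light chain constant regions are near-identical copies among which reads can be shared, so *Iglc2* is uncertain.

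**Figure D4:**
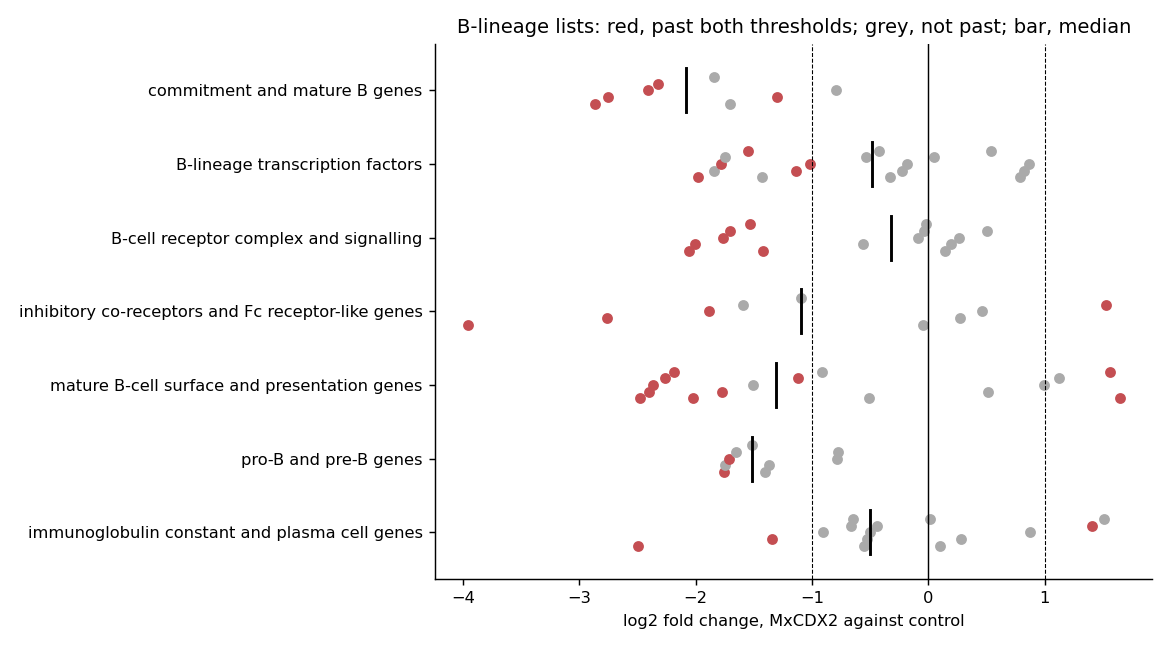
Log2 fold change of each tested gene (points) in the B-cell genes and in 6 further B-lineage lists; red points passed both thresholds, grey points did not, black bars are list medians and dashed lines mark -1 and 1. The medians run from -2.08 in the commitment and mature B genes to -0.33 in the B-cell receptor complex and signalling genes. The 4 red points above 1 are *Fcgr2b*, *Ly86*, *Gpr183* and *Sdc1*.

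Genes of other marrow cells also differed between the groups, and their part in the results was not tested. Of 7 monocyte genes 5 were called higher, and their summed level was 45322 to 66523 normalized counts in the control mice and 283294 to 337524 in the *MxCDX2* mice. Of 7 erythroid genes 7 were called lower (271080 to 350079 against 9601 to 50649), but 2 without *MxCDX2* mouse 3. Of 7 neutrophil genes 3 were called lower, with 1 call without *MxCDX2* mouse 1, 0 without *MxCDX2* mouse 3 and 5 without control 3.

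Among lymphoid cells, 1 of 7 T-cell genes and 1 of 6 NK-cell genes were called lower, single calls beside the 9.03% of all tested genes called lower. The T-cell gene, *Cd4*, was not called without *MxCDX2* mouse 2 (adjusted p = 0.0575). The NK-cell gene, *Klrb1c*, was called only without control 1 and without control 3, and with the replicate block its adjusted p was 0.0857. The summed T-cell genes had 3691 to 13033 normalized counts in the control mice and 1606 to 3113 in the *MxCDX2* mice. Of 6 genes of plasmacytoid dendritic cells 4 were called lower (6359 to 21377 against 4798 to 5135). The replicate block lost *Siglech* and *Pacsin1* of these (adjusted p = 0.051 and 0.0898), and 2 calls were made without *MxCDX2* mouse 1 and 1 without *MxCDX2* mouse 2 or 3. Of 8 stromal and endothelial genes 3 were called lower (14926 to 55845 against 7372 to 15531), with 0 calls without control 1, *MxCDX2* mouse 1 or *MxCDX2* mouse 2, 1 without control 3 or *MxCDX2* mouse 3, and 4 without control 2. Leaving out 1 mouse gave 694 to 1482 lower calls among all tested genes, beside 1443 with all 6 mice. Of 2 tested genes of follicular dendritic cells 1, *Mfge8*, was called higher. The genes named in these lists were chosen after their values were seen. Every listed marker with a row had reads in each control mouse, and the wild-type mouse had the highest sum for T cells, NK cells, plasmacytoid dendritic cells, stromal cells and follicular dendritic cells.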

How the data were processed

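Poly(A) transcripts of bone marrow from 3 *MxCDX2* and 3 control mice were sequenced as stranded libraries. Reads were aligned with STAR (version 2.5) to GRCm38 and counted per gene with HTSeq (version 0.6.1), and the authors deposited these counts for each mouse, without normalization. Their demultiplexing used bcl2fastq 2.17.1.14, per the submitters' processing notes. The strand setting of the counting is not given in the sources used here, so reads of a gene and its antisense partner may not be separated. Reads without a feature (9.22% to 14.1%) or ambiguous between genes (2.99% to 3.16%) were left out.

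Of the 39179 identifiers, 25488 had at least 1 count and 37607 were matched to a symbol through GENCODE M21. The test was run with edgeR 4.0.16 in R 4.3.3: TMM scaling, default filterByExpr, glmQLFit and glmQLFTest, group as the only term, with Benjamini-Hochberg adjustment over 15980 tested genes. The thresholds (absolute log2 fold change above 1, adjusted p below 0.05) were those of the study. The standard error came from the quasi-likelihood F statistic. The members and lists were chosen with earlier results of these data known. Genes named were the 9 B-cell genes, the 3 called genes of lowest p in each B-lineage list, *Cd79a* and *Cd79b*, and the 5 genes outside the lists most like the mean profile; others named were chosen after their values were seen. Some listed genes are not reported here and were left out of the lists and of the reference for ratios. Exact permutation tests over mice were two-sided. Alternatives were DESeq2 1.42.0, limma 3.58.1 (voom), other scalings and filters, stricter thresholds, a replicate block and leaving out each mouse. The block pairs mice by the replicate numbers in the labels: over genes, deviations from the group means correlated at 0.169, 0.286 and 0.182 within numbers and at -0.328 to 0.103 across them. Deviations cancel out within a group, so positive values within numbers bring lower ones across them. The contrast therefore cannot decide whether the numbers pair the mice. No 2 libraries of the same group agreed within sampling noise. Nothing in the sources says that mice were pooled, so p-values measure the spread between mice.

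With 200 genes changed 4-fold in simulated counts for this comparison, edgeR recovered 185 (92.5%) with 8 false calls over 15730 genes, and made 0 calls over 15736 genes when none was changed. The changed genes were drawn from the more highly counted genes. Each simulated gene had the spread typical of its level, not its own. The share recovered therefore does not give the power for genes that vary more among mice, such as *Pax5* and *Ebf1*. With 38646101 to 49899650 reads on genes in a library, variation among mice sets the precision. Tables and figures used Python 3.11.15, pandas 2.3.3, numpy 2.4.6, scipy 1.17.1 and matplotlib 3.10.9. Promoter sequences and starts came from RefSeq (GRCm38.p6).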

Additional observations from a re-analysis of the deposited data

How the results depend on the processing

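All 128 alternative log2 fold changes of the 8 B-cell genes were below 0. Those at an adjusted p below 0.01 and in the test against a log2 fold change of 1 repeat the main estimate, so their sign could not differ. Of the 128, 117 kept their side of the thresholds, 5 lost the call (*Ms4a1* in 4, *Cd22* in 1) and 6 gained it (*Pax5* in 3, *Ebf1* in 2, *Ighm* in 1). The 5 called B-cell genes became 3 in the test against a log2 fold change of 1, and 4 to 8 with 1 mouse left out, 8 being without control 3. The 30 called genes of the other B-lineage lists became 4 in that test, 13 at an adjusted p below 0.01, and 14 to 38 with 1 mouse left out. The 25 called genes of other cell types became 9 in that test, 10 at an adjusted p below 0.01, and 11 to 26 with 1 mouse left out, 11 being without *MxCDX2* mouse 3. Over all tested genes, the 2177 calls became 611 in that test and 1043 at an adjusted p below 0.01. With 1 mouse left out they became 1205 (without *MxCDX2* mouse 3) to 2406 (without control 3). The cause was not tested. With the replicate block 5 B-cell genes and 25 genes of other cell types were called, but only 20 of the other B-lineage genes, since 11 calls were lost (*Tcf3*, *Ikzf3*, *Spib*, *Cd79a*, *Cd79b*, *Blk*, *Blnk*, *Fcrla*, *Tnfrsf13c*, *Il7r* and *Vpreb2*) and 1 was gained (*Cd40*); in the other cell types 3 were lost (*Klrb1c*, *Siglech* and *Pacsin1*) and 3 gained (*Ccr9*, *Lepr* and *Col1a2*), and the block changed no other call in these lists. Of 56 alternative differences of the ratios to *Cd79a* and *Cd79b*, 1 changed sign: that of *Pax5*, which ran from -0.0709 without control 3 to 0.1504 without control 2. Scaling by total counts alone moved the median log2 fold change of all genes to 0.12, and 5 B-cell genes were still called. The planned ratio of *Ighd* to *Ighm* could not be computed, since *Ighd* had no row. With 3 mice per group and a different genotype in each control, the effect of 1 control genotype cannot be told apart from that of 1 mouse.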

Other observations

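The wild-type mouse combined the lowest *Pax5*, *Ebf1* and *Ighm* of the controls with the highest summed level of several other marrow populations, among them stromal and endothelial genes (55845 normalized counts, against 14926 and 32006 in the other controls) and genes of plasmacytoid dendritic cells (21377, against 6359 and 7215). *Fcrl5*, an Fc receptor-like gene, had 60.1, 35.7 and 419 normalized counts in control mice 1, 2 and 3 and 15.9, 4.90 and 12.2 in the *MxCDX2* mice. Control 3 held most of the *Fcrl5* reads, and the size of the log2 fold change of -3.96 (SE 1.08, adjusted p = 0.0424) depended on that mouse. Without control 3 the log2 fold change was -2.09 and *Fcrl5* was still called (adjusted p = 0.0373). The call was lost without *MxCDX2* mouse 1, 2 or 3 (adjusted p = 0.0922, 0.129 and 0.131) and in limma voom (0.0914). *Xbp1*, the transcription factor of secretory plasma cells that other secretory and myeloid cells also use, had 13257, 7907 and 7281 normalized counts in the control mice and 19200.3, 15355 and 17679 in the *MxCDX2* mice, without overlap (log2 fold change 0.88, under the threshold of 1, adjusted p = 0.046). With 1 mouse left out, *Xbp1* was called higher only without control 1 (log2 fold change 1.21, adjusted p = 0.0102). *Prdm1*, which encodes Blimp-1, had 704, 228 and 282 against 490.5, 527 and 457 and was not called (adjusted p = 0.679). These genes were chosen after their values were seen.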
